A study of Mus musculus with 14 samples.

Results

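The genes described here are the mouse cadherins and protocadherins other than Cdh1 and Cdh2. They were chosen by name, as every gene whose symbol in the array's annotation is Cdh with a number or begins with Pcdh, and where a gene had several probe sets the brightest over all 14 arrays stood for it. The rule found 54 genes among 18194 genes on the array, carried by 98 probe sets, and 18 of the 54 were bright enough to test. The arrays measured mRNA in fibroblasts, incompletely reprogrammed cells and pluripotent cells, 1 array per sample. The 2i iPSCs were clones 2B1 and 5C5 (female, C57BL/6) after conversion under 2i, in which the kinases MEK and GSK3 are inhibited. The embryonic stem cells (ESCs) were the Nanog-GFP line (male, C57BL/6) and the wild-type line EBRTcH3 (male, 129sv), kept with leukemia inhibitory factor (LIF) and serum. The mouse embryonic fibroblasts (MEFs) came from Nanog-GFP embryos (mixed sex, C57BL/6), gave 1 array, and are aged 12.5 dpc in the sample title, while the series text gives another age. All of these were set against untreated partial iPSCs, reprogrammed cells of the same clones, 2B1 and 5C5, that had stopped short of pluripotency and were kept in LIF and serum. A further 7 arrays held partial iPSCs of clone 2B1 after retroviral transfer of Cnot1, Cnot2 or Cnot3, of the 3 jointly (Cnot123), of Trim28, of Nanog, or of the empty vector. The Cnot proteins belong to Ccr4-Not, the complex that shortens mRNA poly(A) tails, and Trim28 is a corepressor of transcription. All transduced arrays therefore rest on 1 clone, and the 2 ESC lines differ in strain from each other and in sex from the iPSC clones.

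Cadherins are membrane proteins whose extracellular cadherin repeats bind calcium and hold neighbouring cells together. Type I and type II classical cadherins are tied to actin through catenins, and cells tend to sort according to which of them they carry. Cdh13 is held by a lipid anchor and has no cytoplasmic tail. Non-clustered protocadherins are single genes, many of them active in the developing nervous system. Clustered protocadherins lie in tandem arrays on mouse chromosome 18 and are best known for letting neurons tell their own branches from those of other neurons. Fibroblasts and pluripotent cells are known for carrying different cadherins.

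Levels are given as the deposited log2 signal and differences as log2. For tested genes the differences come from limma with their standard error (SE) and an adjusted p (Benjamini-Hochberg over 12664 genes), called below 0.05. Each group in a test had 2 arrays from different clones or lines, so p measures the spread between clones or lines. As a check of the labels, 8 pluripotency genes averaged 11.97 and 11.78 in 2i iPSCs, 12.19 and 12.39 in ESCs, 4.59 in MEFs, and 5.77 and 5.57 in untreated partial iPSCs. Against partial iPSCs, 7 of the 8 were called higher and 1, Pou5f1, lower, both in 2i iPSCs and in ESCs. Pou5f1 was 11.95 and 11.72 in 2i iPSCs, 12.42 and 12.27 in ESCs, 4.23 in MEFs, and 13.25 and 13.16 in untreated partial iPSCs. At or above the array median were 8 of 8 on each 2i and ESC array, 2 in MEFs and 3 on each partial array. A list of 9 fibroblast genes averaged 9.60 and 9.58 in 2i iPSCs, 5.17 and 4.92 in ESCs, 12.60 in MEFs, and 8.66 and 8.26 in untreated partial iPSCs. Of these genes, 9 of 9 were at or above the array median on each 2i array, 2 of 9 on each ESC array, 9 of 9 in MEFs and 8 of 9 on each partial array. In such bulk samples fewer cells of a kind and less RNA per cell cannot be told apart. Medium and cell state differ together between 2i iPSCs and partial iPSCs, and cannot be told apart. The transduced arrays had other value distributions than the other 7, were treated as normalized apart, and are compared only among themselves unless stated.

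Most of these genes were dim. The 36 genes left out of the test ranged between 2.22 and 5.99 over the 14 arrays, with a median of 3.51. The number of the 54 genes at or above the array's own median was 9 and 7 in 2i iPSCs, 6 and 7 in ESCs, 15 in MEFs and 11 and 8 in untreated partial iPSCs. Of 23 clustered protocadherins 5 were tested, of 12 non-clustered protocadherins 4, of 11 type II cadherins 4, of 3 type I cadherins 3, and of the 5 other Cdh genes 2. A gene that passed only through the group where it is bright had to differ, so the counts below describe the tested genes and not the family.

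Between 2i iPSCs and untreated partial iPSCs, 1 of the 18 tested genes was lower (Pcdhb17) and 0 were higher, against 2.46% lower and 3.55% higher of all genes tested (6% in either direction). Between ESCs and untreated partial iPSCs, 7 were lower (Cdh11, Cdh13, Pcdh17, Pcdh18, Pcdhb16, Pcdhb17 and Pcdhb21) and 1 was higher (Cdh3), against 9.82% and 6.09% of all genes (15.9% in either direction). Between 2i iPSCs and ESCs, 3 were higher (Cdh11, Pcdh18 and Pcdhb17) and 0 lower, against 3.69% and 0.158% of all genes (3.85% in either direction). The first 2 comparisons share the partial arrays and the last shares arrays with both. The median log2 fold change of the 18 genes was 0.03 in 2i iPSCs against partial iPSCs, -1.12 in ESCs against partial iPSCs and 0.08 in 2i iPSCs against ESCs, beside 0.03, 0.00 and 0.00 over all tested genes. The median level of the tested genes was 0.17 lower in ESCs than in partial iPSCs. With the arrays scaled to that median, 51.1% of the calls over all genes were higher in ESCs than in partial iPSCs, against 38.3% as deposited, and 7 of the 8 family calls remained, without Pcdhb16. Leaving out either 2i array left 2 of these genes called in ESCs against partial iPSCs (Cdh11 and Pcdhb17). This is the same fit as the 4 compared arrays alone, because a group left with 1 array adds nothing to the spread. The same holds in each comparison for an array of the group not compared, and the alternatives below count such fits more than once. In both comparisons with 2i iPSCs, leaving out either 2i array lost all calls of the family, with 1 array left in that group.

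**Figure D1:**
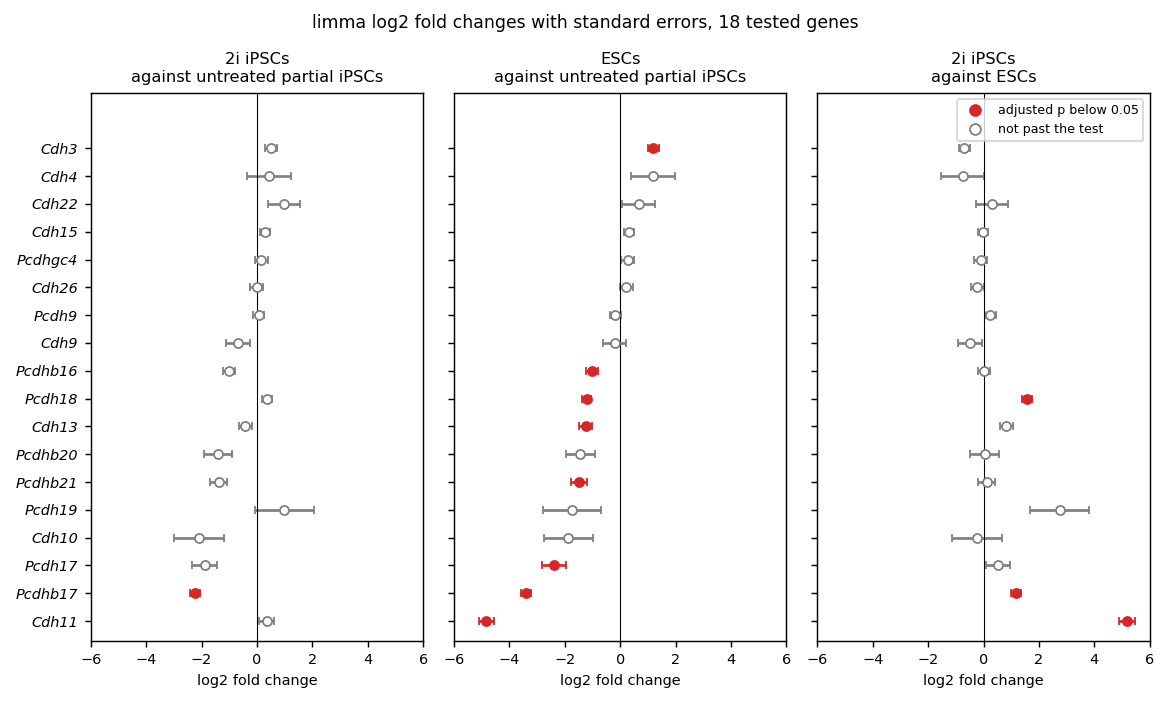
Log2 fold changes (points) with limma SE (bars) for the 18 tested genes in 3 comparisons of 2 arrays against 2, in order of the ESC comparison; filled points passed an adjusted p of 0.05. Pcdhb17 is the only filled point in the first panel, 8 genes are filled in the panel of ESCs against untreated partial iPSCs, and Cdh11 lies farthest from 0 on the left there and on the right in 2i iPSCs against ESCs.

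Among type II cadherins, Cdh11, the cadherin of mesenchymal cells and osteoblasts, had the largest fitted fold change of the 18 genes, in ESCs against partial iPSCs. Its level was 7.98 and 8.28 in 2i iPSCs (2B1 and 5C5), 2.91 and 3.00 in ESCs (Nanog-GFP and EBRTcH3), 12.00 in MEFs, and 8.12 and 7.45 in untreated partial iPSCs. Both ESC arrays lay below the lower quartile of the array and far below every other array of the block, while the 2i and partial arrays overlapped. Cdh11 fell by 4.83 in ESCs against partial iPSCs (SE 0.29, limma adjusted p = 0.0015), a size that rests on the background because of the low ESC values. In 2i iPSCs it was 5.18 higher than in ESCs (SE 0.29, adjusted p = 0.00261) and differed from partial iPSCs by 0.35 (SE 0.29, adjusted p = 0.524). The ESC difference passed under all 15 alternatives run. The 2i against ESC difference failed only without either 2i array, at adjusted p of 0.056 and 0.0594, with alternatives running between 0.00217 and 0.0594. The other probe set of Cdh11 also had its highest value in MEFs. Fibroblast genes were low in the same ESC arrays, and their part in the Cdh11 difference was not tested.

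Cdh10, which like Cdh9 is best known from neurons, had 3.29 and 4.98 in 2i iPSCs, 3.41 and 5.31 in ESCs, 7.77 in MEFs and 5.56 and 6.90 in untreated partial iPSCs. In each clone the 2i array was lower than the partial array, by 2.27 in 2B1 and 1.92 in 5C5, and the clones themselves differed by more than 1. The fold change of -2.10 (SE 0.90) did not pass (adjusted p = 0.238). Another probe set of Cdh10 had 3.64 and 3.86 in 2i iPSCs, 3.94 and 4.65 in ESCs, and 4.65 and 5.38 in partial iPSCs. It had 4.83 in MEFs, so it did not show the high MEF value. A list of neural markers, 7 on the array, averaged 6.70 and 6.68 in 2i iPSCs, 6.49 and 6.85 in ESCs, 6.08 in MEFs and 6.68 and 7.77 in untreated partial iPSCs. Its members moved both ways in 2i iPSCs against partial iPSCs, with Sox11 (-2.39) called lower and Tubb3 (2.85) called higher. Of those not called, Sox1 (-2.17), Pax6 (-1.84) and Nes (-0.91) fell and Map2 (1.06) rose. The part of this list in the Cdh10 values was not tested. Cdh9 was dim in this block, at 3.47 and 3.35 in 2i iPSCs, 3.35 and 4.43 in ESCs, 3.41 in MEFs and 4.41 and 3.78 in untreated partial iPSCs, and no comparison passed (adjusted p = 0.395, 0.767 and 0.652). It was tested because the transduced arrays were brighter. The other type II gene tested, Cdh22, given to complete the class, also passed no comparison. It stood at 5.84 and 5.31 in 2i iPSCs, 4.44 and 6.10 in ESCs, and 4.87 and 4.34 in partial iPSCs.

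Of the type I cadherins, Cdh3 (P-cadherin, of placenta and basal epithelia) was 6.28 and 6.62 in 2i iPSCs, 7.08 and 7.20 in ESCs, 8.16 in MEFs and 5.85 and 6.04 in untreated partial iPSCs. The ESC arrays did not overlap with the partial arrays, and the log2 fold change was 1.20 (SE 0.21, adjusted p = 0.0224). That call was lost, at adjusted p of 0.0714, when only the 4 compared arrays were fitted or either 2i array was left out, and also without either partial array (0.0845 and 0.0563) and without the EBRTcH3 array (0.0505). Over 15 alternatives the adjusted p ran between 0.0163 and 0.0845. The 2i difference of 0.51 (SE 0.21) did not pass (adjusted p = 0.223).

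Cdh4 (R-cadherin, of retina and brain) split the partial clones. It was 6.23 and 6.89 in 2i iPSCs, 7.23 and 7.39 in ESCs, 6.16 in MEFs, and 4.94 in untreated 2B1 but 7.32 in untreated 5C5. The 2i array was higher than the partial array by 1.29 in 2B1 and lower by 0.43 in 5C5, so the group means differed by less than the spread (0.43, SE 0.78, adjusted p = 0.792). Without the 5C5 partial array Cdh4 passed in ESCs against partial iPSCs, at 2.38 (adjusted p = 0.0312), against 1.18 (SE 0.78, adjusted p = 0.348) with it. That value rests on 1 partial array, 2B1, with the spread taken from the other groups. The mean of 7 epithelial genes split the clones in the same way, at 6.74 and 7.09 in 2i iPSCs, and 6.25 in untreated 2B1 but 8.52 in untreated 5C5. In untreated 2B1 and 5C5, Cldn7 (4.10 and 9.30), Krt8 (5.43 and 9.59) and Epcam (8.08 and 11.26) differed most. Krt18 (3.63 and 3.71) and Krt19 (9.97 and 10.07) did not split the clones. Cdh1, left out by the rule, had 11.10 and 11.06 in 2i iPSCs, and 7.40 in untreated 2B1 but 11.87 in untreated 5C5. Their part in the Cdh4 difference was not tested. Cdh15 (M-cadherin of muscle), given to complete the class, passed no comparison and had 5.35 to 5.85 on all arrays of the block.

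**Figure D2:**
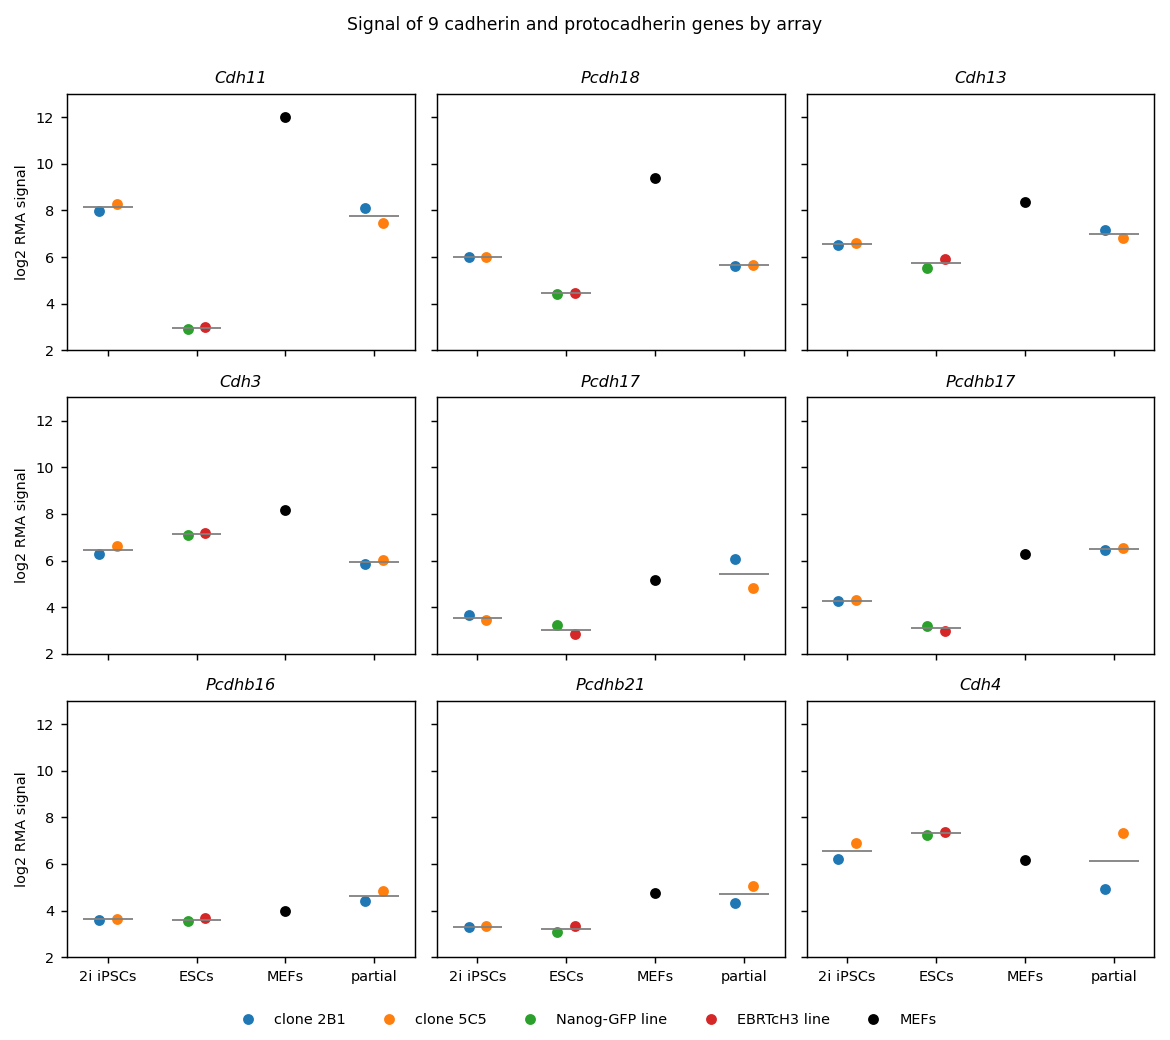
Log2 RMA signal of 9 genes, the 8 called in ESCs against partial iPSCs and Cdh4, 1 panel per gene, with a point for each array of 2i iPSCs, ESCs, MEFs and untreated partial iPSCs coloured by clone or line, and a line at the mean of each pair. Cdh11 has both ESC points near 3 and its MEF point at 12.00, and the partial points of Cdh4 lie apart at 4.94 and 7.32.

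Cdh13 (T-cadherin) was lower in ESCs. It had 6.51 and 6.60 in 2i iPSCs, 5.54 and 5.93 in ESCs, 8.35 in MEFs and 7.15 and 6.80 in untreated partial iPSCs. It fell by 1.25 in ESCs against partial iPSCs (SE 0.24, limma adjusted p = 0.0274). The call was lost in 7 of 14 alternatives. Among them were the 4 arrays alone (adjusted p = 0.0922) and either 2i array left out, which is the same fit. It was also lost with a replicate block that pairs the ESC lines with the clones arbitrarily (adjusted p = 0.0502). Leaving out either partial array or the Nanog-GFP array, which leaves 1 array in a group, lost it as well. In 2i iPSCs the difference of -0.42 (SE 0.24) did not pass (adjusted p = 0.351). The other tested gene of this class, Cdh26, had 4.97 and 5.24 in 2i iPSCs, 5.13 and 5.53 in ESCs and 5.04 and 5.18 in partial iPSCs and passed no comparison.

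Among non-clustered protocadherins, Pcdh17 and Pcdh18 were lower in ESCs. Pcdh17, known for guiding axon growth through actin, had 3.65 and 3.44 in 2i iPSCs, 3.24 and 2.83 in ESCs, 5.17 in MEFs and 6.06 and 4.82 in untreated partial iPSCs. The 2i and the ESC arrays all lay below both partial arrays and below the lower quartile of their own array, so the sizes that follow rest on the background. It fell by 2.40 in ESCs (SE 0.44, adjusted p = 0.025). The 2i fold change of -1.89 did not pass (SE 0.44, adjusted p = 0.0747). The 2i result depended on the probe set and on 1 array, with adjusted p of 0.0416 for the mean of its probe sets, 0.0274 for the most variable one and 0.0372 without the 5C5 partial array, which leaves 1 partial array. The ESC call was lost with the 4 arrays alone or without either 2i array (0.0762) and without the EBRTcH3 array (0.0712), in a range of 0.0129 to 0.0762.

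Pcdh18, known in mouse to bind the adaptor Dab1, had 6.02 and 6.00 in 2i iPSCs, 4.42 and 4.46 in ESCs, 9.41 in MEFs and 5.63 and 5.67 in untreated partial iPSCs. The 3 groups did not overlap, with ESCs lowest. It fell by 1.21 in ESCs against partial iPSCs (SE 0.17, adjusted p = 0.0124) and was 1.57 higher in 2i iPSCs than in ESCs (SE 0.17, adjusted p = 0.012). The difference of 0.36 between 2i and partial iPSCs did not pass (SE 0.17, adjusted p = 0.278). The first of these calls was lost at 0.0619 with the 4 arrays alone or without either 2i array, over a range of 0.00859 to 0.0619. The other was lost without either 2i array (0.17 and 0.18), over a range of 0.00909 to 0.18. The promoters of both genes are shown because these genes differed in ESCs and RefSeq's promoter table holds them. The 250 bases before each start are given 5′ to 3′ on the gene's strand (assembly GRCm38.p6), at chr14:84443313-84443562 (plus strand) for Pcdh17 and chr3:49757317-49757566 (minus strand) for Pcdh18, with CG dinucleotides in capitals.
Pcdh17: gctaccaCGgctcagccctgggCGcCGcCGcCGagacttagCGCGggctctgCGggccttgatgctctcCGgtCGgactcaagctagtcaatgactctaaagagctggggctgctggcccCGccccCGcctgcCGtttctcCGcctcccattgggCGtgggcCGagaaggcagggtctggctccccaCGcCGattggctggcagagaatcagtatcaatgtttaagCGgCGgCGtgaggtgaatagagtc
Pcdh18: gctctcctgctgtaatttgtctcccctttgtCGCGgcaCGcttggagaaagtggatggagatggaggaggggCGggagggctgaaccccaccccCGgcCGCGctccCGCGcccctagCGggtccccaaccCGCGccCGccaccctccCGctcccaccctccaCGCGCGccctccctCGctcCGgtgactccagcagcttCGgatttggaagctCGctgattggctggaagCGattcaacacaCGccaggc
Pcdh17 has 21 CG and Pcdh18 23 CG in this window, where 16.3% and 13.3% of 32851 promoters of the same length have at least as many. The median promoter has 6 CG. The capitals mark sequence only; methylation was not measured here.

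Pcdh19, an X-linked protocadherin that binds N-cadherin, varied between the ESC lines. It had 8.65 and 9.09 in 2i iPSCs, 7.75 and 4.50 in ESCs, 11.83 in MEFs and 8.26 and 7.50 in untreated partial iPSCs. The EBRTcH3 array lay 3.25 below the Nanog-GFP array, and no comparison passed (adjusted p = 0.629, 0.306 and 0.300). Without the Nanog-GFP array, Pcdh19 was called lower in ESCs than in partial iPSCs, at -3.38 (adjusted p = 0.015), and higher in 2i iPSCs than in ESCs, at 4.37 (adjusted p = 0.017). Those values rest on the EBRTcH3 array alone, with the spread taken from the other groups, and are no replicated result. Pcdh9 stood between 5.16 and 5.53 on all arrays of the block except the MEF array, and no comparison passed.

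The clustered protocadherins with a probe set of their own were 22 beta genes and Pcdhgc4; the alpha genes are on the array as 6 probe sets that each name several genes, and were left out. The beta genes, which each encode a whole protocadherin in 1 exon, were lower in both pluripotent groups for Pcdhb17. Pcdhb17 had 4.26 and 4.29 in 2i iPSCs, 3.19 and 2.99 in ESCs, 6.29 in MEFs, and 6.47 and 6.55 in untreated partial iPSCs. The groups did not overlap, and the partial arrays were close to the MEF array. Pcdhb17 fell by 2.24 in 2i iPSCs (SE 0.18, adjusted p = 0.00683) and by 3.42 in ESCs (SE 0.18, adjusted p = 0.00121), both against partial iPSCs. It was 1.18 higher in 2i iPSCs than in ESCs (SE 0.18, adjusted p = 0.0326). Both ESC values lay below the lower quartile of their arrays, so the size of both differences from ESCs rests on the background. Among 15 alternatives the ESC call passed in 15, at up to 0.0117. The 2i call passed in 13 and was lost without either 2i array (adjusted p = 0.105 and 0.1, range 0.0048 to 0.105). The call between 2i iPSCs and ESCs passed in 8. It was lost with the 4 arrays alone or without either partial array, which is the same fit (adjusted p = 0.0642). The replicate block, in which the ESC lines are paired with the clones arbitrarily, also lost it (adjusted p = 0.0709). So did leaving out either 2i array or the EBRTcH3 array, each of which leaves 1 array in a group.

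Pcdhb16 and Pcdhb21 were called lower in ESCs with smaller margins. Pcdhb16 had 3.59 and 3.66 in 2i iPSCs, 3.55 and 3.67 in ESCs and 4.40 and 4.86 in partial iPSCs, with -1.01 (SE 0.22, adjusted p = 0.0685) in 2i iPSCs and -1.02 (SE 0.22, adjusted p = 0.0398) in ESCs. Pcdhb21 had 3.28 and 3.33 in 2i iPSCs, 3.07 and 3.33 in ESCs and 4.32 and 5.06 in partial iPSCs, with -1.38 (SE 0.30, adjusted p = 0.0624) and -1.49 (SE 0.30, adjusted p = 0.0312). All 4 pluripotent arrays of both genes lay below the lower quartile of their arrays, so the size of these differences rests on the background. Both partial arrays also lay below the median of their own array for both genes. No array of this block reached the level needed for testing in either gene. Both genes were tested because transduced 2B1 arrays were brighter. Those arrays also held partial iPSCs, the kind of cell in which both genes were called higher than in ESCs. The Pcdhb16 call was lost in 7 of 14 alternatives and the Pcdhb21 call in 6 of 13, each including the 4 arrays alone (0.12 and 0.0946), either 2i array left out (0.12 and 0.0946), the 5C5 partial array left out (0.106 and 0.0645) and either ESC array left out (0.0812 and 0.0682 for Pcdhb16, 0.0741 and 0.0547 for Pcdhb21). With the arrays scaled to the tested genes Pcdhb16 was also lost (0.0597). Pcdhb20 had 3.31 and 3.29 in 2i iPSCs, 3.11 and 3.40 in ESCs and 3.93 and 5.48 in partial iPSCs and did not pass (adjusted p = 0.182 and 0.124). Without the 2B1 partial array it passed at -2.18 in 2i iPSCs (adjusted p = 0.0364) and at -2.22 in ESCs (adjusted p = 0.0194), and Pcdhb21 passed in 2i iPSCs at -1.76 (adjusted p = 0.0492). These values rest on 1 partial array, 5C5, with the spread taken from the other groups.

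Counted over all 22 beta genes, both 2i arrays lay below both partial arrays for 8 genes and above them for 0, against 25.9% and 31.3% of all genes on the array without a filter. Both ESC arrays lay below for 10 and above for 1, against 23% and 33% of all genes. Between 2i iPSCs and ESCs the 2i arrays lay below for 4 and above for 3, against 28.1% and 21.6%. Most beta genes had a level near the background everywhere, and the median difference over the 22 genes was -0.12 in 2i iPSCs and -0.18 in ESCs, against partial iPSCs, beside 0.02 and 0.07 over all genes. The genes of this cluster are similar to one another in sequence, so their probe sets may share signal. Pcdhgc4, the C4 gene of the gamma cluster, passed no comparison.

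**Figure D3:**
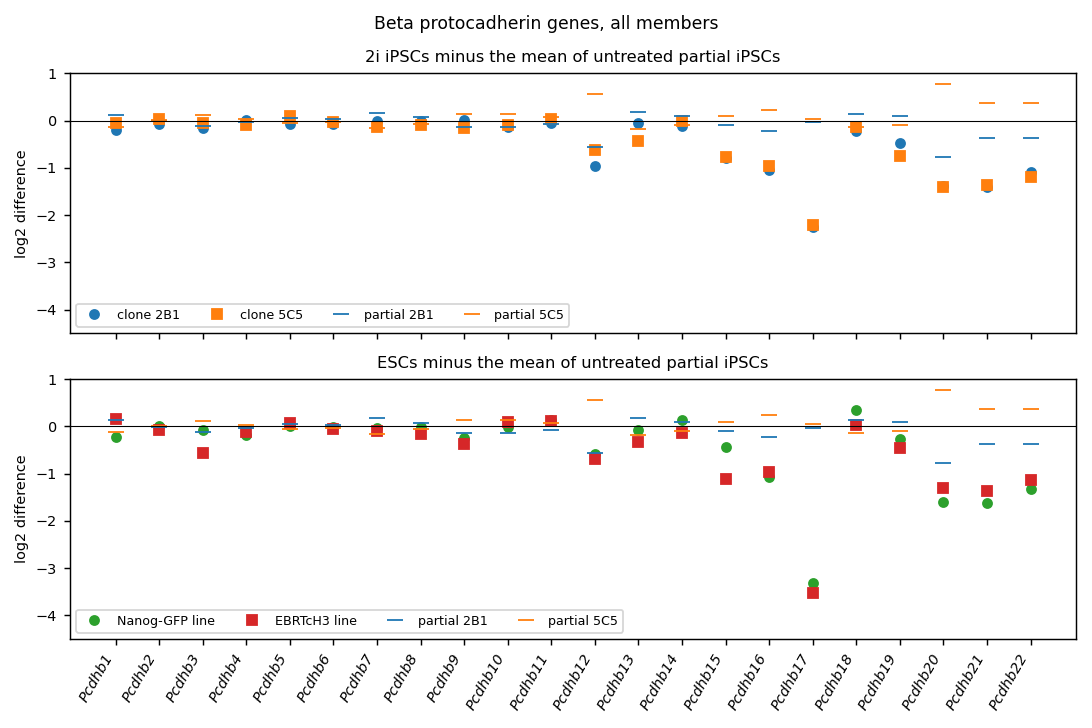
Log2 differences of the 22 protocadherin beta genes from the mean of untreated partial iPSCs, in order of gene number, for each 2i array (upper panel) and each ESC array (lower panel), with dashes for the 2 partial arrays. Pcdhb17 lies lowest, with the other low genes among the higher-numbered genes, and most points near 0.

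In MEFs, 8 of the 18 tested genes were at least 2-fold higher than in both partial clones and 0 were at least 2-fold lower, against 9.9% and 11.3% of all tested genes; MEFs gave 1 array and no test. Cdh11 lay farthest from the partial clones, at 12.00 in MEFs, which was 3.88 above 2B1 and 4.55 above 5C5. Pcdh18 was 9.41 in MEFs, 3.78 and 3.73 above 2B1 and 5C5, and Pcdh19 was 11.83, 3.58 and 4.33 above them. These 3 genes were bright in MEFs and far above both clones. Pcdh9, a delta protocadherin of the nervous system, was 2.67 and 2.92 higher in MEFs (8.17), and Cdh3 2.32 and 2.12 higher. The remaining 3 were Pcdhgc4 (1.68 and 2.05), Cdh13 (1.19 and 1.55) and Cdh26 (1.26 and 1.11). Of the dim genes, Pcdhb3, Pcdhb19, Pcdhb22, Pcdh20 and Cdh6 were also at least 2-fold higher in MEFs than in both clones. Pcdhb22 was the brightest of these, at 5.99 in MEFs. Pcdh7 was named after its values were seen: its brightest probe set was dim, but both of its other probe sets were higher in MEFs. The first read 9.40 in MEFs, 6.26 above 2B1 and 6.29 above 5C5. The second read 6.61 in MEFs, 3.92 above 2B1 and 3.82 above 5C5.

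**Figure D4:**
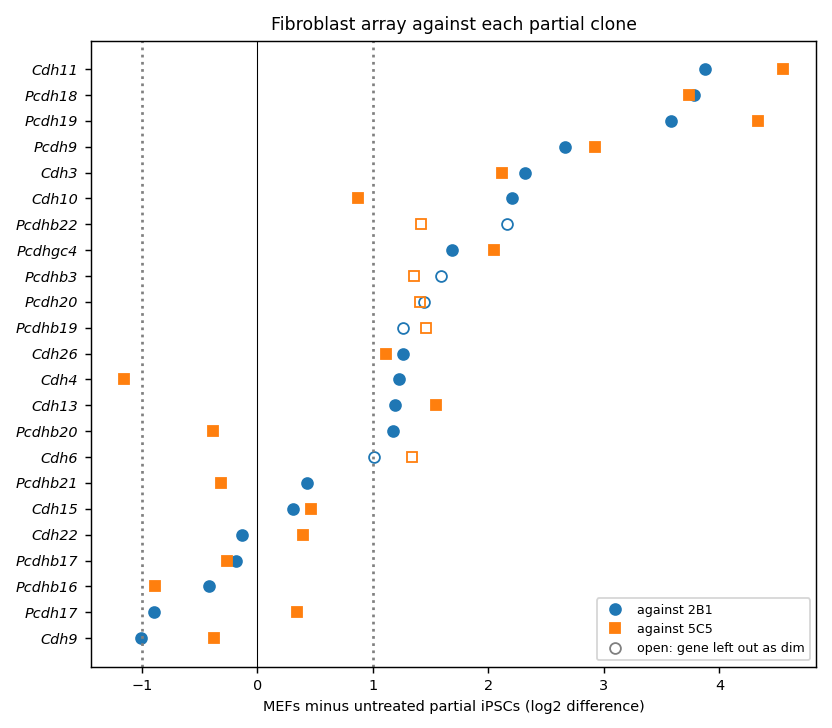
Log2 difference between the MEF array and each untreated partial clone for the 18 tested genes and 5 dim genes at least 2-fold higher (circles against 2B1, squares against 5C5; open symbols are genes left out as dim), 1 array each and no test; dotted lines mark a log2 difference of 1 either way. Cdh11, Pcdh18 and Pcdh19 lie farthest to the right.

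The transduced arrays were made to compare introduced factors with empty vector in clone 2B1, 1 array each and no test. None of the introduced genes stood out on its own array where its probe sets name 1 gene. Cnot2 was 9.69 on the array labelled Cnot2 and 10.01 with empty vector, and Cnot3 was 9.01 on the array labelled Cnot3 and 8.95 with empty vector. Trim28 was 11.97 on the array labelled Trim28 and 11.98 with empty vector, and Nanog was 3.12 on the array labelled Nanog and 4.11 with empty vector. Whether these probe sets read the introduced cDNA is not given in the sources used here, so they do not check the labels. The conditions are called by their array labels below, and the differences are those of single arrays.

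The empty vector array also stood apart from untreated 2B1, across the 2 normalization blocks. Cdh4 was 8.72 with empty vector and 4.94 in untreated 2B1, Cdh9 was 8.06 and 4.41, and Cdh11 was 4.42 and 8.12. Differences from the empty vector array therefore depend on an array that differs from its untreated clone, and the part of that in them was not tested.

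Cdh4 and Cdh9 were lower on the arrays labelled with Cnot factors than on the empty vector array. Cdh4 had 4.80 with Cnot1, 6.64 with Cnot2, 5.13 with Cnot3, 4.04 with Cnot123, 7.30 with Trim28 and 8.39 with Nanog, against 8.72 with empty vector. Its difference from empty vector was -3.91 with Cnot1, -2.08 with Cnot2, -3.58 with Cnot3, -4.68 with Cnot123, -1.41 with Trim28 and -0.33 with Nanog. Cdh9 had 5.06 with Cnot1, 6.76 with Cnot2, 5.69 with Cnot3, 3.78 with Cnot123, 7.50 with Trim28 and 4.48 with Nanog, against 8.06 with empty vector. Its difference was -3.01 with Cnot1, -1.31 with Cnot2, -2.37 with Cnot3, -4.29 with Cnot123, -0.57 with Trim28 and -3.59 with Nanog. Cdh4 and Cdh9 were both lowest with Cnot123. With Nanog, Cdh9 was low against empty vector and Cdh4 was not. All 6 arrays share the empty vector array. Against the median of the 7 transduced arrays, Cdh4 was -1.84 with Cnot1, 0.00 with Cnot2, -1.51 with Cnot3 and -2.60 with Cnot123, and 2.08 with empty vector. On that base Cdh9 was -0.64 with Cnot1, 1.06 with Cnot2, 0.00 with Cnot3 and -1.91 with Cnot123, and 2.37 with empty vector. With Nanog, Cdh4 was 1.75 and Cdh9 -1.21 on that base. Only the array labelled Cnot123 was at least 2-fold below that median for both genes. Epithelial genes moved on the same arrays: the list of 7 averaged 6.43 with Cnot1, 6.92 with Cnot2, 6.85 with Cnot3, 5.39 with Cnot123, 7.39 with Trim28 and 7.52 with Nanog, against 8.19 with empty vector, and their part in the cadherin differences was not tested.

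Cdh11 ran the other way against empty vector. It had 5.44 with Cnot1, 5.55 with Cnot2, 6.28 with Cnot3, 6.92 with Cnot123, 6.08 with Trim28 and 5.14 with Nanog, against 4.42 with empty vector. It was at least 2-fold higher on 5 of these 6 arrays, by 1.02 with Cnot1, 1.13 with Cnot2, 1.86 with Cnot3, 2.50 with Cnot123 and 1.66 with Trim28, and by 0.72 with Nanog. Against the median of the 7 transduced arrays it was -0.11 with Cnot1, 0.00 with Cnot2, 0.73 with Cnot3, 1.37 with Cnot123, 0.53 with Trim28 and -0.41 with Nanog, and -1.13 with empty vector, so 1 of the 5 arrays stayed at least 2-fold higher on that base. All 7 values lay below untreated 2B1, across blocks. The list of fibroblast genes averaged 6.35 to 7.03 with the factors, highest with Cnot123, against 6.23 with empty vector, and its part in the Cdh11 difference was not tested. Pcdh17 had 7.54 with Cnot1, 7.66 with Cnot2 and 7.58 with Cnot123, against 6.52 with empty vector. Pcdh19 was 7.49 with Cnot123 and 5.44 with empty vector, and Cdh13 was 6.36 and 5.24. With the median of the 7 arrays as base, Pcdh17 was 0.69 with Cnot1, 0.81 with Cnot2 and 0.74 with Cnot123. On that base with Cnot123 Cdh13 was 0.86 and Pcdh19 1.57, so only Pcdh19 stayed at least 2-fold higher. Set against untreated 2B1 after centring, across blocks, Pcdh17 was 1.59, 1.76 and 1.68 on those arrays. Pcdh19 and Cdh13 with Cnot123 were -0.61 and -0.64 on this last base.

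Counted over the 18 genes, Cnot1 had 2 higher and 2 lower (4.15% and 5.87% of all tested genes), and Cnot2 the same numbers (2.87% and 3.89%). Cnot3 had 1 higher and 3 lower (2.49% and 5.19%), with Pcdhb20 the additional lower gene. Trim28 had 1 and 1 (0.963% and 1.52%), Nanog 0 and 1 (0.561% and 0.869%). Cnot123 had 4 and 4 (3.72% and 8.43%), with Pcdhb20 and Cdh10 lower as well. Cdh10 was 5.62 with Cnot123 and 7.63 with empty vector. Another Cdh10 probe set had 7.58 with empty vector, 6.48 with Cnot1, 6.51 with Cnot2, 6.22 with Cnot3 and 5.52 with Cnot123. It had 6.52 with Trim28 and 6.19 with Nanog, so it was lower on all 6 factor arrays. The probe set used had 7.63 with Cnot1 and 7.96 with Trim28, so the 2 probe sets differ there. Of the dim genes, Pcdh8 was lower with Cnot1, Cnot2, Cnot3 and Cnot123, by 1.20, 1.10, 1.40 and 1.74, and Pcdhb12 with Cnot1, Cnot3 and Cnot123. Against untreated 2B1 after centring, across blocks, Cdh4 differed by -0.02 with Cnot1, 1.86 with Cnot2, 0.37 with Cnot3 and -0.74 with Cnot123. On the same base Cdh9 differed by 0.76 with Cnot1, 2.50 with Cnot2, 1.45 with Cnot3 and -0.48 with Cnot123. With Cnot123 both genes were lower than empty vector, the median of the 7 arrays and untreated 2B1, the last by less than 1. With Cnot2 and Cnot3 the direction of both genes depended on the array they were set against. The same held for Cdh9 with Cnot1, while Cdh4 with Cnot1 was lower than empty vector and that median. With Nanog, Cdh4 differed by 3.61 and Cdh9 by 0.23 from untreated 2B1 after centring, across blocks.

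Cdh9 and Cdh10 both lie on chromosome 15. Their promoters are shown because both genes were at least 2-fold lower with Cnot123 than with empty vector. Against untreated 2B1 after centring, across blocks, Cdh10 with Cnot123 differed by 0.22 and Cdh9 by -0.48. They are given as above, at chr15:16728665-16728914 and chr15:18820079-18820328 (both plus strand).
Cdh9: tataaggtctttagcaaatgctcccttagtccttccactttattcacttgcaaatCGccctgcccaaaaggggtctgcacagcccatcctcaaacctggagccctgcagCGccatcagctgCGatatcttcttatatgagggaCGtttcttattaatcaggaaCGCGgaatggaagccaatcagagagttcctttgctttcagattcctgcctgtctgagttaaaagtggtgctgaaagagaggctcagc
Cdh10: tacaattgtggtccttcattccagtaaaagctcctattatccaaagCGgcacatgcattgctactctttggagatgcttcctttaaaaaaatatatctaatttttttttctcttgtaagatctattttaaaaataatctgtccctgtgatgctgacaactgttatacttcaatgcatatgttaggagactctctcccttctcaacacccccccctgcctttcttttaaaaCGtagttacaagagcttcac
Cdh9 has 6 CG in this window, where 50.4% of promoters have at least as many, and Cdh10 has 2, where 81.2% do. The window is 48% G or C in Cdh9 and 36.8% in Cdh10, against a median of 52.4% over all promoters. The E-box CAGGTG or CACCTG is bound by the Snai and Zeb repressors. Each form is the reverse complement of the other, so both strands were searched. It was found in 0 of the 10 windows of tested genes (Pcdh9 has 2 windows) and 3 of the 13 windows of dim genes. That made 3 of the 23 windows in all, beside 17.2% of all promoters. By gene it was found in 2 of 20, Cdh7 and Pcdh15, where Cdh7 has more than 1 window with it.

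**Figure D5:**
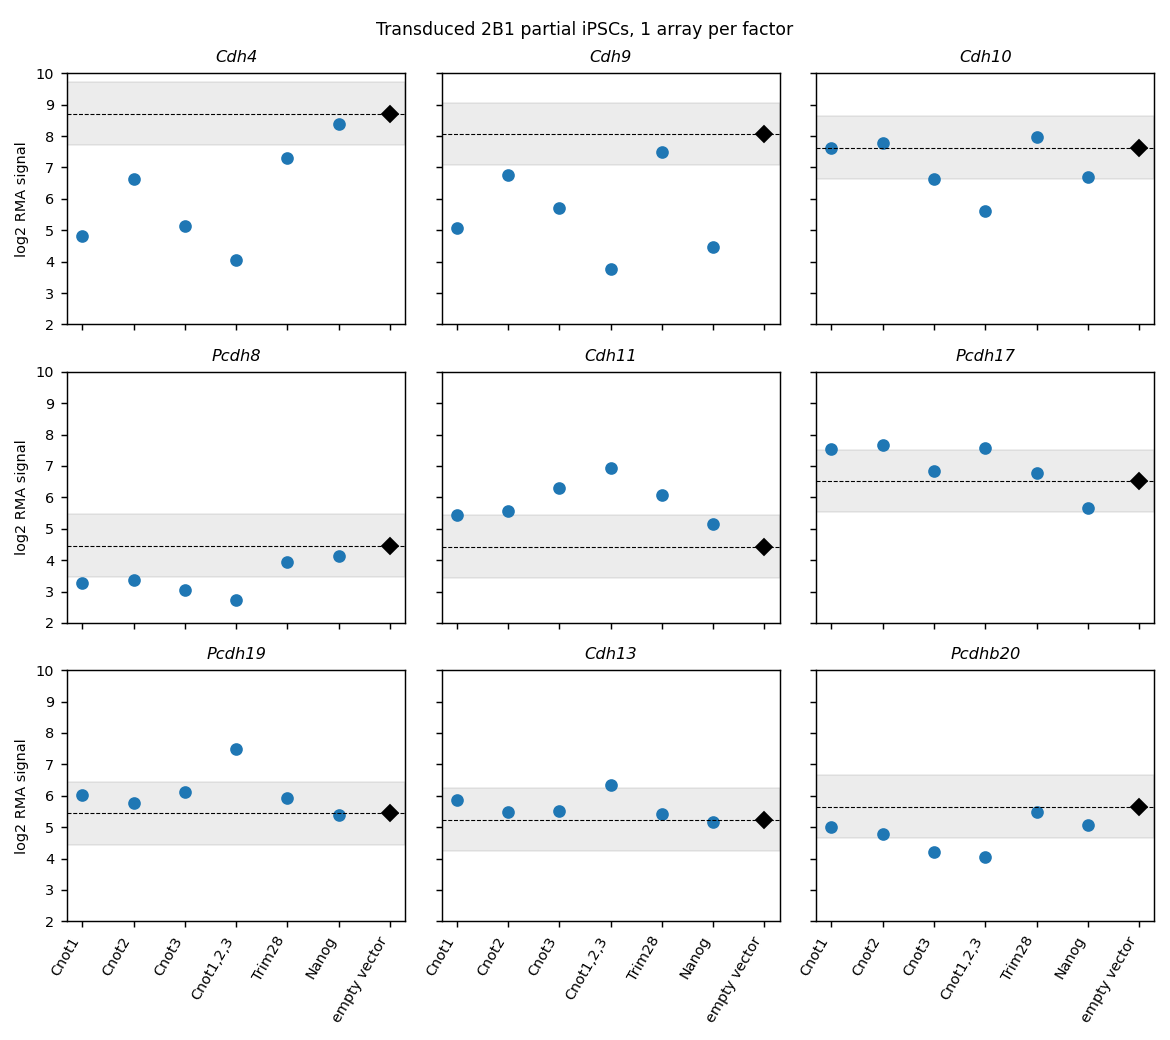
Log2 RMA signal of 9 genes on the 7 transduced 2B1 arrays (circles for the introduced factors, diamond and dashed line for empty vector, grey band 1 above and below it), 1 array each. Cdh4 and Cdh9 lie below the line on the Cnot arrays and Cdh11 above it.

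Genes that work with cadherins were listed with earlier results of these data known. Of the 50 tested genes in 6 lists, 4 were called in 2i iPSCs against partial iPSCs (8%, beside 6% of all genes), 11 in ESCs against partial iPSCs (22%, beside 15.9%) and 4 in 2i iPSCs against ESCs (8%, beside 3.85%). Of 13 tested cytoplasmic partners, Jup, or plakoglobin, fell by 1.21 in 2i iPSCs (SE 0.19, adjusted p = 0.0303) and the scaffold Magi1 fell by 1.04 in ESCs (SE 0.23, adjusted p = 0.0389), both against partial iPSCs; beta-catenin itself (Ctnnb1) was not called. Of 6 tested desmosomal genes, Pkp1, plakophilin 1, was called in both: 5.70 and 6.45 in 2i iPSCs, 5.43 and 5.56 in ESCs, 5.32 in MEFs, and 9.64 and 9.44 in untreated partial iPSCs. It fell by 3.46 in 2i iPSCs (SE 0.30, adjusted p = 0.00749) and by 4.04 in ESCs (SE 0.30, adjusted p = 0.00236). Of 11 tested genes with cadherin repeats outside the family, Celsr3 (2.19) and Clstn3 (1.78) rose and Fat4 fell (-1.52) in ESCs against partial iPSCs, and 0 were called in 2i iPSCs. Of 7 tested proteases and turnover factors, Mmp3 fell by 4.91 and Adam15 by 0.85 in ESCs against partial iPSCs, and Mmp3 was 3.88 higher in 2i iPSCs than in ESCs (SE 0.33, adjusted p = 0.00607). Of 7 tested regulators of the clustered protocadherins, Dnmt3b, a DNA methyltransferase, was higher by 2.16 in 2i iPSCs (adjusted p = 0.036) and 3.29 in ESCs (adjusted p = 0.00613). The repressor Rest was higher by 2.12 (adjusted p = 0.011) and 1.90 (adjusted p = 0.00654). Of 6 tested repressors of cadherin genes, Snai2 (-2.02) and Twist1 (-2.17) fell in ESCs against partial iPSCs, 0 were called in 2i iPSCs against partial iPSCs, and Snai2, Twist1 and Zeb2 were higher in 2i iPSCs than in ESCs.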

How the data were processed

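Affymetrix arrays measured mRNA in 14 samples, 1 array each. The deposited values are log2 probe-set signals for 45101 probe sets, made with RMA and the affy package per the submitters' processing notes, with versions not given in the sources used here. RMA corrects background, normalizes quantiles and summarises probes. The values fell into 2 blocks of 7 arrays, with array means of 6.09 and of 5.87 to 5.88, that were treated as separately normalized.

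Probe sets were named from the platform's annotation: 34958 had 1 gene, 932 several and 9211 none listed. Of the genes described, 26 had more than 1 probe set, and 6 probe sets of several protocadherin alpha genes were left out. All 54 genes matched RefSeq (GRCm38.p6), used for chromosomes and promoters; 20 had a promoter in its table. The members and gene lists were chosen with earlier results of these data known.

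Genes were tested if at least 2 of 14 arrays reached the table's median (5.42), which left 12664. The 6 arrays of 2i iPSCs, ESCs and untreated partial iPSCs were fitted together with limma 3.58.1 in R 4.3.3 (lmFit, eBayes; 3 residual and 2.25 prior degrees of freedom), because each group has 2 arrays, and p was two-sided. The fit was tested on simulated data. Conditions with 1 array were described by a log2 difference of at least 1. The number of arrays limits the precision.

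Untreated and 2i arrays are paired by clone. Deviations of the same clone correlated at 0.11 over 12664 genes, and the clone was used as a replicate block in an alternative. In the comparisons with ESCs, the 2 ESC lines were paired with the clones by replicate number in that alternative, which is arbitrary. The genes named are those called in a comparison, at least 2-fold apart in MEFs or on a transduced array, Cdh4, Cdh9 and the 10 brightest. Other alternatives were filters, scaling, probe-set choice, the 4 compared arrays alone and leaving out each array.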

Additional observations from a re-analysis of the deposited data

Results flagged for a closer look

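Cdh4 moved in opposite directions in the 2 clones on conversion under 2i. The 2i array minus the untreated array was 1.29 in clone 2B1 and -0.43 in clone 5C5 on the log2 scale. Each is a difference of 2 single arrays, and the difference between the clones was not tested. The level was 6.23 in the 2i array and 4.94 in the untreated array of 2B1, and 6.89 and 7.32 in those of 5C5.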

How the results depend on the processing

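Calls of single genes rest on few arrays. Some of the alternatives counted below are the same fit. Leaving out an array of the group not compared equals fitting the 4 compared arrays alone. In 48 combinations of a named gene and a comparison, 681 alternatives were run: 601 kept direction and side of the threshold, 46 lost the threshold, 11 gained it and 23 changed sign, none of them for a difference that had been called. The counts of called cadherins and protocadherins moved as follows. In 2i iPSCs against partial iPSCs the count of 1 became 2 with the mean of all probe sets and with the most variable probe set, and ran from 0 to 3 when 1 array was left out. In ESCs against partial iPSCs the count of 8 became 2 with the 4 arrays alone and 4 with the mean of all probe sets, and ran from 2 to 7 with 1 array left out. In 2i iPSCs against ESCs the count of 3 ran from 0 to 4 with 1 array left out. Over all genes, 760 called in 2i iPSCs became 1396 with the 4 arrays and 43 to 1396 with 1 array left out, 2015 in ESCs against partial iPSCs became 780 and 780 to 2328, and 487 in 2i iPSCs against ESCs ran from 0 to 786. The clone as a replicate block gave 297 genes called in 2i iPSCs against partial iPSCs, in place of 760. Of the family, 1 gene was called in both. Comparisons with ESCs used another replicate block, in which the 2 ESC lines were paired with the clones arbitrarily. With that block Cdh10 passed in ESCs against partial iPSCs (limma adjusted p = 0.0174). Cdh13 lost its call there, and Pcdhb17 lost its call between 2i iPSCs and ESCs, as given above. In MEFs the count of 8 became 13 without a filter, 4 with the stricter filter and 5 with the mean of all probe sets, and 9 to 12 with 1 array left out. On the transduced arrays Cnot1, Cnot2, Cnot3, Trim28, Cnot123 and Nanog had 4, 4, 4, 2, 8 and 1 genes at least 2-fold apart from empty vector. Against the median of the 7 arrays, chosen after seeing the data, they had 1, 1, 1, 1, 5 and 3, and against untreated 2B1 after centring, across blocks and also chosen after, 9, 10, 6, 10, 3 and 8. At a log2 difference of 1.5, Cnot1 had 2, Cnot2 1 and Trim28 1; with the arrays centred on the median Cnot1 had 2; with the mean of all probe sets Trim28 had 1 and Nanog 2.
Sign changes outside leaving out an array were Cdh26 in 2i iPSCs against partial iPSCs (0.018 with the tested genes as scale), and in 2i iPSCs against ESCs Pcdhb16 (-0.024 centred on the median, -0.13 on the tested genes), Pcdhb20 (-0.10) and Pcdhb21 (-0.036) on that scale. With 1 array left out the fold changes that changed sign ran, in 2i iPSCs against partial iPSCs, from -0.14 to 0.13 for Cdh26, -0.76 to 1.62 for Cdh4, -0.060 to 0.19 for Pcdh9 and -0.037 to 0.36 for Pcdhgc4. In ESCs against partial iPSCs they ran from -0.0077 to 2.38 for Cdh4 and -0.75 to 0.33 for Cdh9. In 2i iPSCs against ESCs they ran from -1.17 to 0.72 for Cdh10, -1.02 to 0.060 for Cdh9, -0.043 to 0.074 for Pcdhb16, -0.11 to 0.19 for Pcdhb20, -0.023 to 0.24 for Pcdhb21 and -0.31 to 0.088 for Pcdhgc4. The cause of these changes was not tested. Signal near background limits the differences of the dim genes and of tested genes that are low in 1 group (Cdh11, Pcdh17, Pcdhb16, Pcdhb17 and Pcdhb21), and 2 arrays a group limit the precision. Where leaving out an array leaves a group with 1 array, its spread is taken to equal that of the other groups.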
